A study of Mus musculus with 3 samples.

Results

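The genes of cAMP turnover and adenosine sensing that macrophages are known for were described in chromatin-associated RNA: the adenosine receptor genes Adora2a and Adora2b, the adenylyl cyclase gene Adcy7 and the phosphodiesterase genes Pde4a, Pde4b, Pde4c and Pde4d. They were chosen by symbol and make up 7 of the 55536 genes in the deposited gene tables. The RNA came from macrophages grown from the marrow of C57BL/6J mice and given lipid A, the Toll-like receptor 4 agonist of bacterial lipopolysaccharide, at 100 ng/ml for 50 min. Total RNA of the chromatin fraction was depleted of ribosomal RNA and sequenced in 3 libraries, which the labels number as biological replicates 1, 2 and 3 but give 1 donor code, so their spread may be technical in part or whole. The labels state 1000 ng of RNA input for library 1, 250 ng for library 2 and 500 ng for library 3, and they record neither the sex nor the age of the mice. All 3 libraries had the same treatment and time; untreated cells, other times and other fractions were not analysed here. The values are therefore levels with their spread, and no change upon lipid A is reported. With 3 libraries of 1 group, an exact sign-flip test cannot give a p below 0.25, so no p is printed. In bulk RNA, fewer cells of a type and less RNA per cell cannot be told apart.

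Cyclic AMP is made from ATP by adenylyl cyclases, which the stimulatory G protein switches on when receptors such as those encoded by Adora2a and Adora2b bind their ligand. PDE4 enzymes break cAMP down, and each Pde4 gene has several promoters that give long forms, with both of the regulatory regions called UCR1 and UCR2, and shorter forms that lack all or part of them. In macrophages a rise in cAMP is known to dampen release of tumour necrosis factor after Toll-like receptor 4 is engaged, and Pde4b is the PDE4 gene known to respond to lipopolysaccharide.

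The gene tables held 10496703, 17687379 and 14806118 expected counts in libraries 1, 2 and 3. A gene was called detected where none of the 3 libraries fell below 10 expected counts, which held for 12167 of 55536 genes (21.9%). Of the 7 genes, 6 were detected and Pde4c was not. All 8 macrophage markers examined were detected, with a median level of 43.9 TPM (a level corrected for transcript length and scaled to the same total in each library) and summed levels of 547, 569.9 and 597 TPM in libraries 1, 2 and 3. Of 20 markers of neutrophils, B cells, T cells, mast cells, fibroblasts and erythroid cells, 2 were detected, Cd4 and Kit. Col1a1 (0, 28 and 21 expected counts in libraries 1, 2 and 3) and Col1a2 (1, 25 and 14) fell below the limit in library 1 only. The summed level of these 20 was 3.65, 4.09 and 2.56 TPM in libraries 1, 2 and 3, and 10 of them, among them Cd3e, Ly6g, Cpa3, Pdgfra and Hbb-bs, had 0 counts in every library. Each library also had a second deposited quantification, used below as a check on the levels and transcript shares of the 7 genes. By the same limit it detected all 8 macrophage markers and 8 of the 20 markers of other cells, among them all 3 fibroblast genes. Pdgfra, with 0 counts in the first quantification, stood at 0.934 ± 0.305 TPM there (SD, n = 3).

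Pde4b was the leading gene, and its many starts are part of the result, so the sequence before its 4 near starts, those closest to the end of the gene, is shown first. Pde4b-207, the form with a far start that received reads, has no entry among the windows. The gene lies on chromosome 4 at 102087543-102607259 on the plus strand (mm10, GENCODE M21) and spans 519.7 kb with 13 annotated transcripts. The windows below are genomic, GRCm38.p6, plus strand, 5′ to 3′, and credited to RefSeq. The first, chr4:102569810-102570059, lies before the start of Pde4b-203, and its capitals mark the match to the NF-kB motif. The second, chr4:102587308-102587557, lies before Pde4b-201, and the third, chr4:102589593-102589722, before the neighbouring starts of Pde4b-202 and Pde4b-204.
Pde4b-203 start: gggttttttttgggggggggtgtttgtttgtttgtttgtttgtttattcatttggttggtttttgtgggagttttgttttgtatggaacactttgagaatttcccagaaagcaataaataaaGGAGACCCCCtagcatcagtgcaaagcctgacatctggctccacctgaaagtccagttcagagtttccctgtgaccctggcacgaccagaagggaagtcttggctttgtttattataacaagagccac
Pde4b-201 start: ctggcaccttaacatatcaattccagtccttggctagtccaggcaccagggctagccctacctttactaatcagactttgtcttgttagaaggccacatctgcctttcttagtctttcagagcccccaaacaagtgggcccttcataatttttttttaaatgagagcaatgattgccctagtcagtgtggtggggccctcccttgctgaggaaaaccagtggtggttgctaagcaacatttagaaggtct
Pde4b-202 start: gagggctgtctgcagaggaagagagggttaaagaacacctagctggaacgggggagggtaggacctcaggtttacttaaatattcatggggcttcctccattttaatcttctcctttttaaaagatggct

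The Pde4b-203 window held 1 match to the NF-kB motif, starting 128 bases before the RefSeq start, and 4.51% of 32851 RefSeq promoter windows of the same length (300 bases, of which 250 precede the start) held one. Among the 13 promoter windows listed for 6 of the 7 genes, it was the single window with that match. None of the 3 printed Pde4b windows held TGACGTCA (the cAMP response element, found in 1.79% of all windows), TGANTCA (AP-1, 7.81%) or TATAAA (13.6%). Both strands were searched. A match describes letters and shows no binding.

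The Pde4b starts also change the protein's first residues, which the first 60 coding bases show, read from the GENCODE M21 transcripts with the start codon in capitals. Pde4b-207 is the long form that received reads. Pde4b-203, Pde4b-202 and Pde4b-201 are shorter forms from the starts above.
Pde4b-207: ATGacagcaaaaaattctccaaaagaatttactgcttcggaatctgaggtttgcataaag
Pde4b-203: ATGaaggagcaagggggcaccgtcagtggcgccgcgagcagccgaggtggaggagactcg
Pde4b-202: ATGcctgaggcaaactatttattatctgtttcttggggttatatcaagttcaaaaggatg
Pde4b-201: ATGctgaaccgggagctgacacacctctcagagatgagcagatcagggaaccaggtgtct

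Pde4b-207 codes for 721 codons, Pde4b-203 for 564, Pde4b-202 for 503 and Pde4b-201 for 484. Pde4b-204 begins its coding sequence with the same 60 bases as Pde4b-202 but ends earlier, after 402 codons. Of the coding bases of Pde4b-203, 93% lie in the coding sequence of Pde4b-207, and 118 do not. The coding sequence of Pde4b-201 lies wholly inside that of Pde4b-207, so its start codon is an internal codon position of the long form. The map of Pde4b exons by distance shows that the forms drawn share the exons that begin from 503.288 to 515.044 kb. Pde4b-204 ends at 515.899 kb in a longer exon and lacks the last exon of the other forms drawn, which begins at 517.431 kb.

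**Figure D1:**
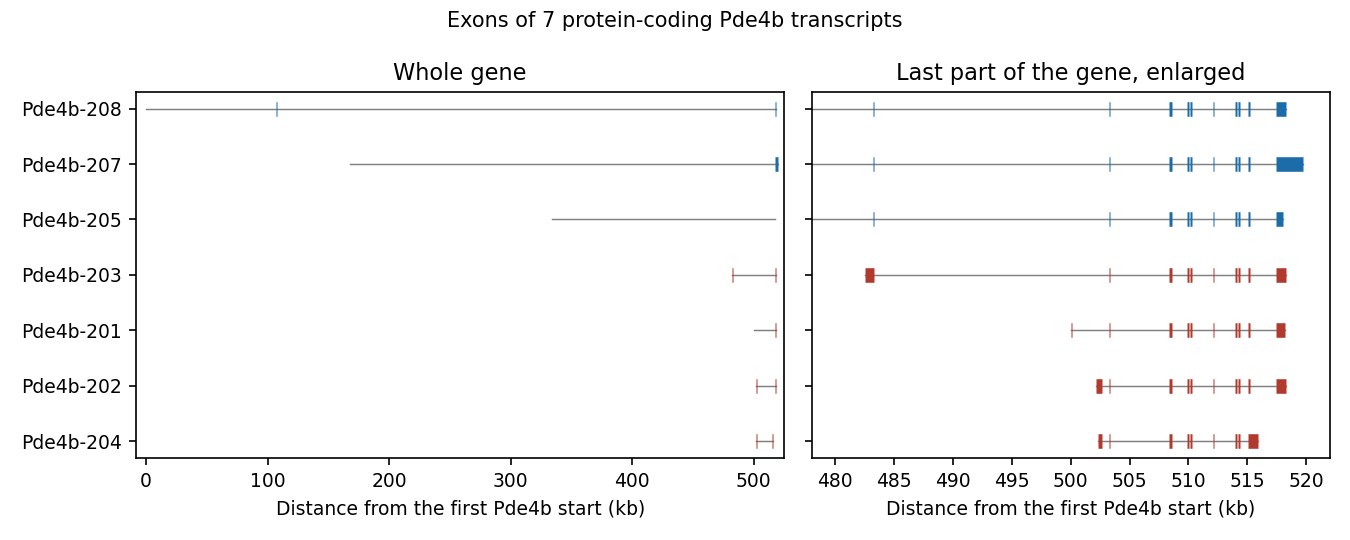
Exons (blocks) of 7 protein-coding Pde4b transcripts by distance in kb from the first annotated start of the gene, with the whole gene on the left and its last part enlarged on the right. Forms with far or middle starts are blue and the 4 forms with near starts are red; the last exon of Pde4b-207 runs on for 1398 bases past the end of every other form.

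Adora2a and Adora2b, which sense extracellular adenosine, were low but detected, and which of them was higher depended on the quantification. Adora2b (ENSMUSG00000018500.2, chromosome 11, 62248984-62266453, plus strand) stood at 6.24, 3.51 and 3.14 TPM in libraries 1, 2 and 3, from 135, 145 and 87 expected counts. Library 1 was the highest, and the mean was 4.3 ± 1.69 TPM (SD, n = 3). Adora2a (ENSMUSG00000020178.6, chromosome 10, 75316877-75334784, plus strand) stood at 2.09, 2.07 and 2.09 TPM, from 29, 44 and 27 expected counts, with a mean of 2.08 ± 0.0115 (SD, n = 3). Counting error is wider than this spread in TPM: the exact Poisson 95% interval on the 29 counts of library 1 runs from 19.4 to 41.6. The median detected protein-coding gene stood at 4.87 TPM.

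In the first quantification Adora2b exceeded Adora2a in each library, by 2.99, 1.7 and 1.5 times in TPM, and their ranges did not overlap. In the second quantification Adora2b stood at 8.17, 4.94 and 3.34 TPM and Adora2a at 7.92, 5.2 and 4.13. There the ratio of Adora2b to Adora2a was 1.03, 0.949 and 0.808, so the order turned in libraries 2 and 3 and the ranges overlapped. No order of the 2 receptors holds in both quantifications. Adora2b has a single annotated transcript, whereas Adora2a has 4, of which Adora2a-201 holds the whole coding sequence of 410 codons and the other 3 are incomplete models of 434 to 601 bases. Adora2a-201 received 71.4% ± 6.71 of the gene's expected counts (SD, n = 3) but 26.7% ± 6.77 of its TPM. In the second quantification its TPM share was 11.9% ± 1.32 (SD, n = 3), so most of the Adora2a TPM rests on short incomplete models.

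Adcy7, a cyclase that answers the stimulatory G protein, was the second most abundant of the 7 genes in both quantifications. The gene (ENSMUSG00000031659.13, chromosome 8, 88272403-88329962, plus strand) stood at 34.8, 49.4 and 48.6 TPM, from 2321, 6601 and 4327 expected counts. Library 1 was the lowest, and the mean was 44.3 ± 8.22 TPM (SD, n = 3), against 57.9 ± 5.08 in the second quantification. Adcy7 ranked 906 among 9665 detected protein-coding genes by mean TPM. It made up 77.7% ± 1.38 (SD, n = 3) of the summed TPM of all 10 adenylyl cyclase genes, and 73.3% ± 2.15 in the second quantification. The next were Adcy9 with 15.8% ± 1.94 and Adcy3 with 5.54% ± 0.607 (SD, n = 3).

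Of the Adcy7 transcripts, Adcy7-201 received 82, 79.9 and 77.5% of the gene's TPM in libraries 1, 2 and 3, and 50.1% ± 6.81 (SD, n = 3) in the second quantification. The 4 coding transcripts of Adcy7 each have 1099 codons and start at different positions, and Adcy7-201 has 28 bases found in no other transcript. Of these 4 starts it is the nearest to the gene's end, at 35.7 kb. The window before it, chr8:88293954-88294203 (RefSeq, GRCm38.p6, plus strand), is shown because most Adcy7 reads were given to this start, and it held none of the 5 motifs searched (the NF-kB motif, the cAMP response element, its short form TGACG, AP-1 and TATAAA).
Adcy7-201 start: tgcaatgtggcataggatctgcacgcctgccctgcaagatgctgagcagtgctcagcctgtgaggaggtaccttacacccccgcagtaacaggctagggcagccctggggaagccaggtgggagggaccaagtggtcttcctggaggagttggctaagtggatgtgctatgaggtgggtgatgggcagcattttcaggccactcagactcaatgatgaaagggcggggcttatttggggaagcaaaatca

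The 4 PDE4 genes differed widely in level, and Pde4b held 92.7, 93.3 and 93.7% of their summed TPM in libraries 1, 2 and 3 (mean 93.2% ± 0.511, SD, n = 3). The share was 90.9% ± 0.275 (SD, n = 3) in the second quantification. Pde4b (ENSMUSG00000028525.16) stood at 84.7, 58.6 and 82 TPM, from 3044, 4048 and 3890 expected counts. Library 2 was the lowest on this scale. The mean was 75.1 ± 14.3 TPM (SD, n = 3), which placed Pde4b at rank 521 of the 9665 detected protein-coding genes, and the second quantification gave 123 ± 29.5 (SD, n = 3).

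Pde4d (ENSMUSG00000021699.17, chromosome 13, 108449948-109953461, plus strand), whose locus of 1504 kb is the longest of the 7, stood at 4.59, 2.85 and 3.1 TPM from 78, 88 and 81 expected counts. Pde4a (ENSMUSG00000032177.17, chromosome 9, 21165714-21213248, plus strand) stood at 2.06, 1.31 and 2.42 TPM from 102, 134 and 153 expected counts. The ranges of Pde4d and Pde4a in TPM did not overlap in either quantification, with Pde4d the higher in each library. In expected counts of the first quantification, which are not corrected for transcript length, Pde4a was the higher in each library. In estimated counts of the second, Pde4d was the higher in libraries 1 (181 against 172) and 2 (244 against 239). Pde4a was the higher there in library 3 (283 against 241). No order of Pde4d and Pde4a holds on both scales. Pde4b exceeded Pde4d by 18.5, 20.6 and 26.5 times in libraries 1, 2 and 3 and Pde4a by 41.1, 44.8 and 33.9 times in TPM. The gap was thus large in each library against the spread of the ratios.

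Pde4c (ENSMUSG00000031842.14, chromosome 8, 70723720-70751186, plus strand), the remaining PDE4 gene, had 1, 1 and 0 expected counts in libraries 1, 2 and 3. A count of 0 allows up to 3 counts as a one-sided limit, whereas the Poisson intervals given here are two-sided; both cover counting error only. The second quantification gave Pde4c 159.9, 205 and 161 estimated counts and 2.8 ± 0.814 TPM (SD, n = 3), with 82.2, 100 and 100% of that TPM in libraries 1, 2 and 3 on the single transcript Pde4c-207. The 2 quantifications thus disagree on whether Pde4c RNA was present. No exon of another annotated gene overlaps Pde4c exons, and why the 2 tables differ was not tested.

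In order of mean TPM in the first quantification, the genes ran Pde4b, Adcy7, Adora2b, Pde4d, Adora2a, Pde4a and Pde4c. Pde4b lay above Adcy7 in every library, by 2.44, 1.19 and 1.69 times, and their ranges did not overlap. The ranges of Adora2b and Pde4d overlapped, as did those of Adora2a and Pde4a, so these neighbours are not ordered beyond their spread. In the second quantification 4 of the 6 detected genes (Pde4a, Pde4b, Pde4d and Adora2a) were over 1.5-fold higher in mean TPM (0.1 TPM added to each mean), and so were 54.5% of all detected genes, whose median ratio was 1.57. Protein-coding genes took 22.4, 16.4 and 20.4% of TPM in the first quantification and 41.7, 28.8 and 32% in the second. Relative to the summed protein-coding TPM of its library, the ratio of second to first was 0.948 for Pde4b, 0.959 for Pde4a, 1.05 for Pde4d, 0.759 for Adcy7, 0.731 for Adora2b and 1.55 for Adora2a. On that scale the levels of Pde4a, Pde4b and Pde4d nearly coincide, and Adora2a remains the gene that differs most of the 6. The plot of levels by library shows both sets of values.

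**Figure D2:**
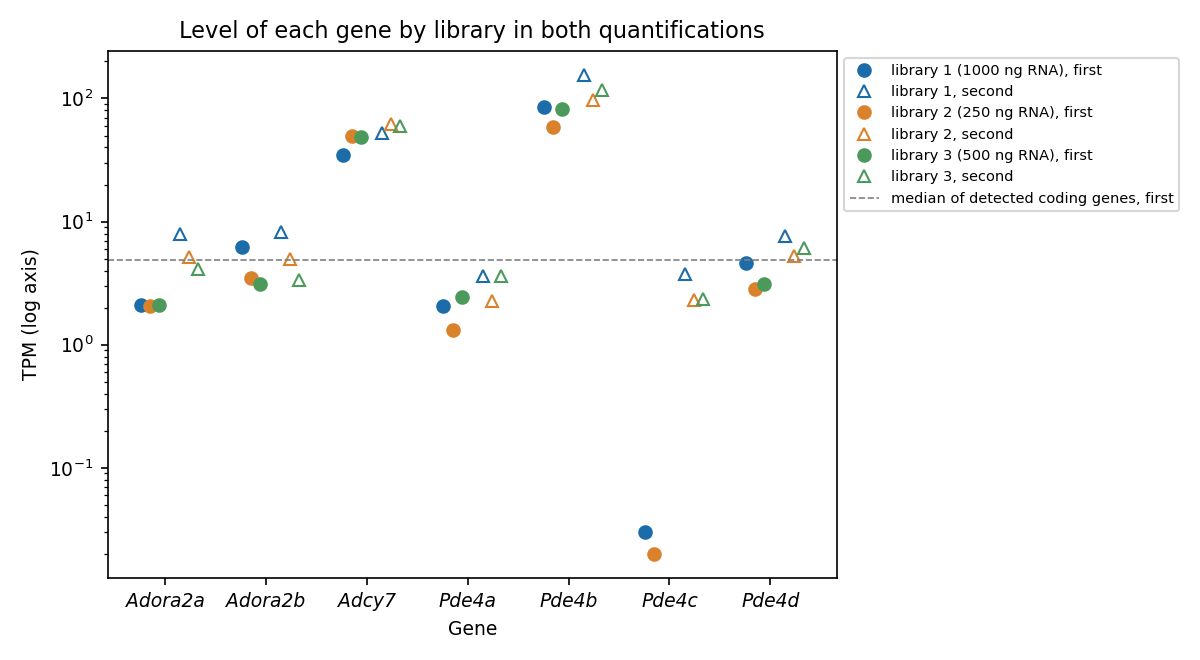
TPM of each gene (log axis) in each of the 3 libraries, with circles for the first and triangles for the second quantification. Pde4b and Adcy7 lie far above the dashed median of 4.87 TPM, and Pde4c, near 0 in the first quantification (its value of 0 in library 3 is not drawn), lies between 2.3 and 3.74 TPM in the second.

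The reads of Pde4b were given mainly to its near starts, those from 17.4 to 37.2 kb before the gene's end. These 4 transcripts together held 74, 77.3 and 72.8% of Pde4b TPM in libraries 1, 2 and 3 (mean 74.7% ± 2.3, SD, n = 3). The far start of Pde4b-207, 352 kb before the gene's end, held nearly all the rest, with 26, 22.6 and 27.2% (mean 25.2% ± 2.38, SD, n = 3). The other long forms, Pde4b-208 (736 codons, from the farthest start) and Pde4b-205 (659 codons), were given 0 TPM in every library by both quantifications. As a share of expected counts, which favours longer transcripts, the near starts held 62.2% ± 3.16 (SD, n = 3).

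Among the near starts, Pde4b-203, which has the length of the form known as PDE4B2, held 24.1, 40.7 and 30.2% of Pde4b TPM. Library 2 was the highest, as it was in the second quantification, where the shares were 15.4, 27.2 and 19.9%. Pde4b-202 held 21.7% ± 5.35 and Pde4b-204 held 21.4% ± 2.86 of TPM (SD, n = 3), and both shares lay within 1 point of these in the second quantification, at 21.5% ± 3.29 and 21% ± 2.09. No order among Pde4b-203, Pde4b-202 and Pde4b-204 holds in every library.

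Pde4b-201 was listed at 0 in all 3 libraries in the first quantification but held 28.2, 18.2 and 20.8% of Pde4b TPM in the second. This transcript has 95 bases found in no other Pde4b transcript, the fewest of the 4 near-start forms. In the second quantification the near starts together held 85.7% ± 1.48 and Pde4b-207 stood at 13.1% ± 1.17 (SD, n = 3). The share of Pde4b-207 rests in part on its end and not its start. Of the 2205 bases of Pde4b-207 absent from all near-start transcripts, 807 precede the first near start and 1398 lie past the last base, 102605861, of every other transcript. A read from those 1398 bases could be given to no other annotated form, whatever its start, and its part in the share was not tested. A similar limit holds for Pde4b-204 among the near starts. Its 672 bases found in no other Pde4b transcript extend its last exon into an intron of the other forms that span it. Reads from those 672 bases could come from RNA of any start, and their part in the near-start share was not tested. With Pde4b-204 counted among them, near starts took most of Pde4b TPM in every library of both quantifications. The split among single forms did not hold in both.

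**Figure D3:**
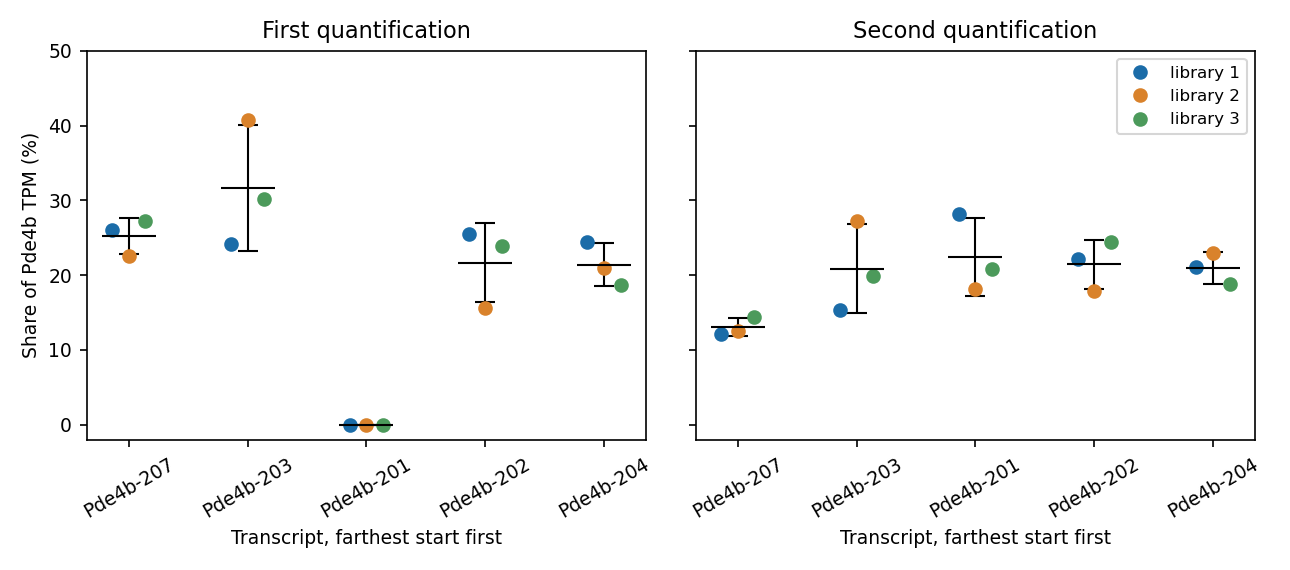
Share of Pde4b TPM (%) given to each of 5 transcripts in libraries 1 to 3 (points), with the mean (wide bar) and SD (error bar, n = 3), in the first (left) and second (right) quantification. Pde4b-201 sits at 0 on the left and between 18.2 and 28.2% on the right, and Pde4b-203 is highest in library 2 in both.

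Pde4d RNA lay mostly on transcripts annotated as noncoding. Its 12 protein-coding transcripts together held 9.61, 15.7 and 13.9% of Pde4d TPM in libraries 1, 2 and 3 (mean 13.1% ± 3.14, SD, n = 3), which came to 13.2, 24.2 and 16.4 expected counts. The coding share was 26.6% ± 0.592 (SD, n = 3) in the second quantification. Among 8085 detected protein-coding genes that also have noncoding transcripts, the median coding share was 52.4% of TPM in the first and 43% in the second quantification. Pde4d lay above 6.02% of these genes in the first and above 27.5% in the second. Pde4d was thus low in coding share in both, and more so in the first.

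The retained-intron transcript Pde4d-212 held 53.5, 66.4 and 50.3% of Pde4d TPM, and the 2-exon processed transcript Pde4d-210 held 20.3, 8.74 and 32.9%. The second quantification gave 43.2% ± 9.14 and 15.9% ± 6.31 (SD, n = 3) to the same 2 transcripts. Pde4d-212 begins in the first exon of the coding transcript Pde4d-201 and has 0 bases of its own, since each lies in another Pde4d transcript as well. The processed transcript Pde4d-217, of 524 bases, had 5.05% ± 5.13 of TPM in the first quantification (SD, n = 3). That share rests on 2, 1 and 0 expected counts in libraries 1, 2 and 3. Among coding forms, Pde4d-205 (703 codons), Pde4d-201 (678 codons) and Pde4d-207 (584 codons) held 7.53% ± 1.73, 6.83% ± 1.64 and 7.3% ± 0.464 in the second quantification, and each had a mean under 5% in the first. With so few coding counts, no order among the coding forms of Pde4d was detectable at this depth.

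Pde4a RNA lay mainly on the long form Pde4a-202 (844 codons) in the first quantification, with 60.2, 72.3 and 50.4% of Pde4a TPM. In the second its share was 34.9% ± 5.55 (SD, n = 3), from 32.8, 41.2 and 30.7% in libraries 1, 2 and 3. The retained-intron transcript Pde4a-205 held 56.5, 31.8 and 38% there, against 19.9, 1.54 and 5.33% in the first quantification. Pde4a-204, also a retained-intron transcript, held 13.6% ± 4.96 of TPM in the first quantification and 17.6% ± 12.3 in the second (SD, n = 3). The coding Pde4a-203 (787 codons), which has 0 bases of its own, held 13.1% ± 9.25 in the first (SD, n = 3). In the second Pde4a-203 held 6.32, 0 and 0% in libraries 1, 2 and 3. Pde4a-205 thus lay above Pde4a-202 in libraries 1 and 3 of the second quantification, and Pde4a-202 led in library 2 of the second and in every library of the first. In Pde4b, by contrast, transcripts annotated as coding held 98.8% ± 0.317 of TPM (SD, n = 3) in the second quantification and 100% in the first after rounding. They include Pde4b-204, whose 672 own bases lie in an intron of the other forms that span them. The contrast is thus one of annotated class and does not show that Pde4b RNA lacked introns.

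**Figure D4:**
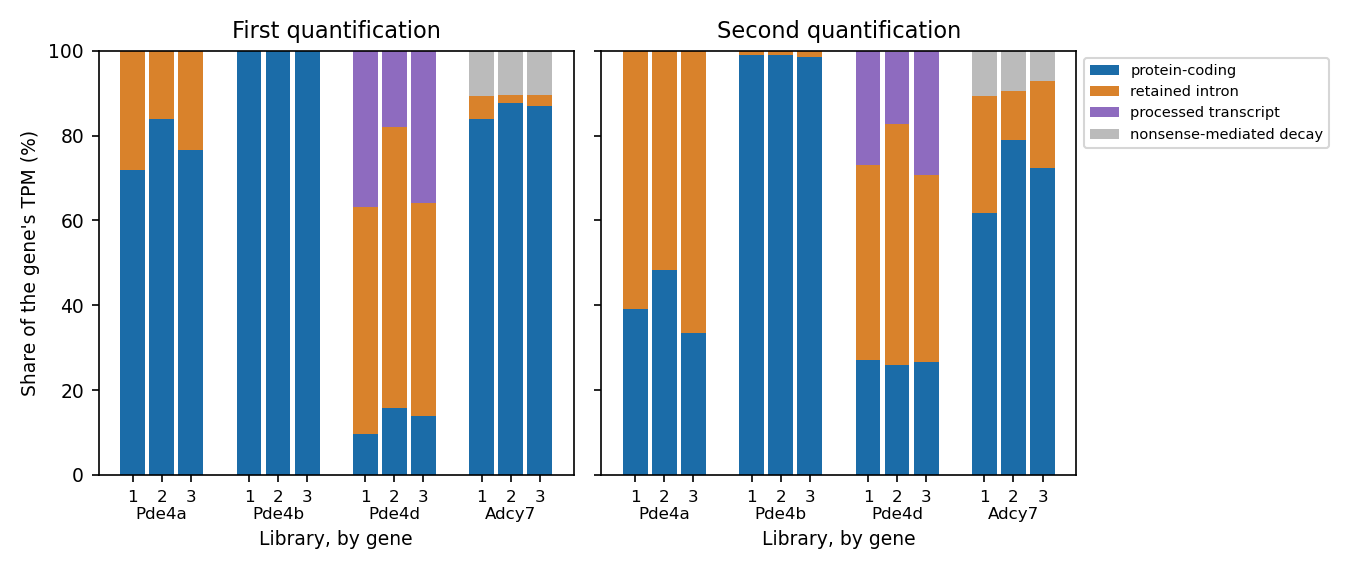
Share of each gene's TPM (%) by annotated class of transcript for Pde4a, Pde4b, Pde4d and Adcy7, as stacked bars with 1 bar for each library and 1 panel for each quantification. Pde4b is almost wholly protein-coding, Pde4d is between 9.61 and 15.7% protein-coding in the first quantification, and the coding share of Pde4a falls between 33.4 and 48.3% in the second.

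The spread between libraries was read on counts scaled for library size (TMM-normalised CPM, with 0.5 added to each count before logs). Of the 6 detected genes, 1 ranged over 2-fold between its highest and lowest library, Adcy7, and so did 2166 of 12167 detected genes (17.8%). Adcy7 stood at 190.3, 405 and 313 CPM in libraries 1, 2 and 3, a range of 2.13-fold with library 1 the lowest. Without library 1 its log2 range was 0.37, and without library 2 it was 0.72, so the call rests on these 2 libraries. With scaling by library totals the log2 range of Adcy7 was 0.75, under the limit of 1, and that of Adora2b was 1.13, over it. Which gene passes the limit thus depends on the scaling.

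Library 1 was the farthest from the median library in 1495 of the 2166 genes over 2-fold (69%), and without it 2.69% of detected genes ranged over 2-fold, against 8.7% without library 2 and 13.7% without library 3. Library 1 also had the most RNA input, the fewest counts and the largest share of counts on rows that name no gene, 1.28% against 0.427 and 0.383% in libraries 2 and 3. Of the 8 macrophage markers, Csf1r (2.62-fold) and Itgam (2.67-fold) also ranged over 2-fold with library 1 the lowest. Library, input and depth cannot be told apart, and their part and that of the markers in the Adcy7 range was not tested.

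With TMM scaling Pde4b was among the steadiest genes, with 249.5, 248 and 281 CPM and a range of 1.13-fold. This range lay above that of 8.26% of detected genes. Its log2 range was 0.18 with TMM scaling, 0.34 with library totals and 0.08 in the second quantification. The median detected gene ranged 1.49-fold. Pde4d stood at 6.39, 5.4 and 5.86 CPM (1.19-fold), Pde4a at 8.36, 8.22 and 11.1 (1.35-fold) and Adora2a at 2.38, 2.7 and 1.95 (1.37-fold). Adora2b stood at 11.1, 8.89 and 6.3 CPM, a range of 1.75-fold with library 3 the lowest. For the low genes counting error alone is wide. The half-width of the exact Poisson 95% interval was 38.3% of the count for Adora2a in library 1 and 21.6% for Adora2b in library 3, against 3.57% for Pde4b in library 1. The biological coefficient of variation from edgeR was 0.21 for Pde4b, 0.273 for Adcy7 and 0.26 for Adora2b, and its median over detected genes was 0.237. Each of these values is drawn towards the one common to detected genes, 0.251, so it does not measure the spread of its gene alone.

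**Figure D5:**
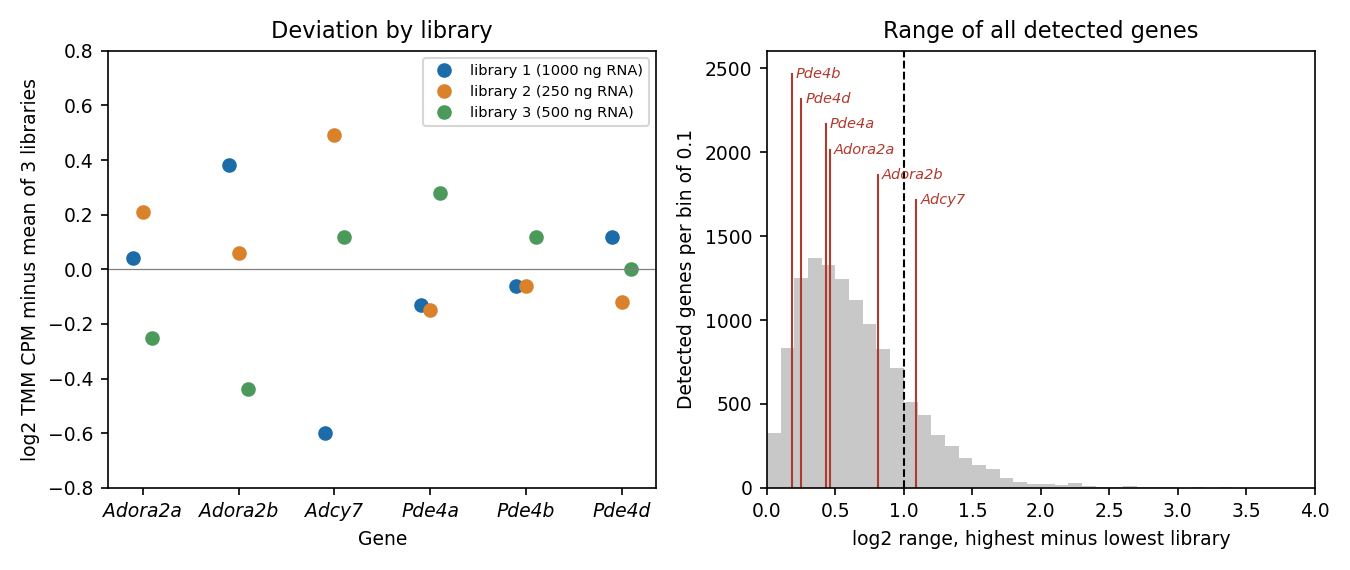
Left, log2 TMM CPM of each detected gene in each library minus the mean of the 3 libraries; right, the number of detected genes by log2 range between highest and lowest library (bins of 0.1), with red lines for the 6 genes and a dashed line at 2-fold. Pde4b has a range of 0.18 and Adcy7 one of 1.09, the single red line past the dashed one.

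By deviation of log2 TMM CPM from the gene's mean over the 3 libraries, the protein-coding genes most like Pde4b were Hmbox1 (distance 0.008), Enox2 (0.009) and Meaf6 (0.010). Within a distance of 0.1 lay 397 genes. With 3 libraries of 1 condition, likeness of this kind does not set any gene apart.

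The wider pathway was read from 86 other genes in 10 lists, of which 61 (70.9%) were detected. The share over all genes was 21.9%, but it includes noncoding genes and is not a matched background for these lists. Of these 61, 7 ranged over 2-fold, against 17.8% of all detected genes. Over all 86, the median mean level was 2.19 TPM in the first quantification and 4.95 TPM in the second. Levels of single list genes are those of the first quantification unless stated. At the receptor step, the other adenosine receptor genes Adora1 and Adora3 were both undetected in the first quantification, with 0 counts in every library for Adora1 and 1, 0 and 3 for Adora3. The second quantification gave Adora3 3.38 ± 0.809 TPM (SD, n = 3), or 23.9% of the summed TPM of the 4 adenosine receptor genes. The 2 quantifications thus disagree on Adora3 as they do on Pde4c. Of 8 genes for other receptors that raise cAMP, 5 were detected. Ptger4, a receptor for prostaglandin E, stood at 9.99, 2.54 and 5.68 TPM and ranged 2.71-fold in CPM. Of 7 G protein genes, 6 were detected, led by Gnb1 at 42.3 ± 12.8 and Gnb2 at 38.8 ± 5.47 TPM (SD, n = 3), which encode beta subunits.

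At the cyclase step, 3 of 9 genes other than Adcy7 were detected. Adcy9 stood at 8.96 ± 1.66 and Adcy3 at 3.18 ± 0.835 TPM (SD, n = 3), and Adcy3 ranged 3.03-fold in CPM with library 1 the lowest, as with Adcy7. At the phosphodiesterase step, 10 of 15 further genes were detected, and 2 had a higher mean TPM than Pde4b. Pde1b, a calcium-dependent phosphodiesterase gene, stood at 121, 171 and 165 TPM, and Pde7b, whose product is specific for cAMP, at 139, 59.6 and 82.3 TPM. Of the summed TPM of 19 phosphodiesterase genes, Pde1b held 42.9% ± 11.1, Pde7b 25.5% ± 9.05 and Pde4b 20.7% ± 2.2 (SD, n = 3). Pde7b was below Pde1b in libraries 2 and 3 and above it in library 1. Its TPM range overlapped that of Pde4b (84.7, 58.6 and 82 TPM), so Pde7b and Pde4b are not ordered beyond their spread. In CPM Pde4b was the higher in libraries 2 and 3, at 248 and 281 against 239 and 263 for Pde7b. The list follows the Pde symbols and includes Pde6d, whose product is known as a prenyl-binding protein. Pde1c (0.52 ± 0.274 TPM, SD, n = 3) ranged 2.95-fold in CPM.

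Downstream of cAMP, 6 of 9 genes for subunits and inhibitors of protein kinase A were detected, led by the regulatory subunit gene Prkar1a at 22.3 ± 1.91 TPM and the catalytic subunit gene Prkacb at 2.89 ± 1.3 TPM (SD, n = 3). Of the 2 Epac exchange factor genes, Rapgef3 was detected at 5.6 ± 2.05 TPM (SD, n = 3) with a range of 2.73-fold and library 1 the lowest, and Rapgef4 had 0 counts in every library. Of 13 genes for kinase anchoring proteins and PDE4 partners, 12 were detected. Akap13 led with 152 ± 20.9 and Arrb2, a beta-arrestin gene, followed with 74.9 ± 1.66 TPM (SD, n = 3), whereas Akap1 (0.657 ± 0.284 TPM, SD, n = 3) ranged 2.77-fold. All 11 genes for CREB factors and their coactivators and kinases were detected. Creb1 stood at 92.5, 29.5 and 51.5 TPM, highest in library 1, and ranged 2.14-fold in CPM. Crtc2, a CREB coactivator gene, had 50.3 ± 8.99 TPM, and its relative Crtc1 had 1.2 ± 0.419 TPM (SD, n = 3) and ranged 2.13-fold.

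Of 10 genes for adenosine production, uptake and removal, 7 were detected. Ampd3, which encodes an AMP deaminase, stood at 133 ± 23.2 TPM and Entpd1, which encodes the ectoenzyme CD39 that degrades extracellular ATP, at 59 ± 8.06 TPM (SD, n = 3). In the second quantification Ampd3 stood at 305 ± 48.5 and Entpd1 at 333 ± 6.95 TPM (SD, n = 3), so the order of their means turned. Nt5e, which encodes CD73, the ectoenzyme that makes adenosine from AMP, stood at 0.28, 0.13 and 0.22 TPM from 12, 10 and 14 expected counts, so it passed the limit for detection narrowly. Nt5e falls outside the rule for naming list genes and was chosen after its values were seen. Of the 7 pathway genes over 2-fold, Adcy3, Rapgef3, Akap1 and Crtc1 were lowest in library 1, Creb1 and Ptger4 were highest there, and Pde1c was lowest in library 3.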

How the data were processed

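Chromatin-associated RNA of 3 libraries of 1 group was analysed. The authors deposited gene and transcript tables with expected counts, TPM and FPKM, per the file headers, and a second transcript table with estimated counts and TPM, per the file headers. The first tables also hold other values, posterior means and SDs of counts, deposited by the authors and not used in the text. The values were made on mm10 with GENCODE M21, per notes that the authors deposited with them, and every gene identifier was found in that annotation. Not given in the sources used here are the aligner, the programs behind both tables and whether counting used strand, without which antisense reads cannot be told apart. Rows naming no gene held 1.28, 0.427 and 0.383% of counts in libraries 1, 2 and 3 and were left out.

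Gene TPM of the second table was summed over transcripts. Expected counts were rounded for edgeR 4.0.16 (TMM scaling, 0.5 added to each count, intercept-only dispersion, R 4.3.3) and, as an alternative, DESeq2 1.42.0 size factors. The scaling step was tested on simulated data. Intervals on counts are exact Poisson 95% intervals for counting error only. The genes and lists were chosen with earlier results of these data known. The text names the 7 genes, the top 2 by mean TPM of each pathway list and list genes over 2-fold, Pde4 transcripts with a mean of at least 5% of their gene's TPM in either quantification, and the 3 genes most like Pde4b; the level of 1 list gene under this rule is not reported here. Alternatives were the second quantification, other scalings and limits, and leaving out each library.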

Additional observations from a re-analysis of the deposited data

How the results depend on the processing

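The share of Pde4b in the TPM of the 4 Pde4 genes (93.2%) was 90.9% in the second quantification, 93.2% in FPKM or relative to summed protein-coding TPM, and between 93 and 93.5% with each library left out in turn. The count of genes over 2-fold (1) ran from 0 to 1 with each library left out, with 0 without library 1 and 0 without library 2. It was 1 with library totals, where the gene was Adora2b in place of Adcy7, and 1 with DESeq2 size factors, the second quantification and 2 added to each count. The share of Pde4b TPM from the 4 near starts (74.7%) was 85.7% in the second quantification, 62.2% as a share of expected counts, 74.7% over protein-coding transcripts only, and between 73.4 and 75.7% with each library left out. Of the 86 pathway genes, 61 were detected, 67 with at least 10 counts in any library, 49 with at least 1 TPM in each library, 75 in the second quantification and 61 to 64 with each library left out. The percent of detected genes over 2-fold (17.8) was 22.9 with library totals, 11.1 in the second quantification, 47.1 over all genes with a count, and 2.69, 8.7 and 13.7 without library 1, 2 and 3. No paired analysis was possible because the libraries form 1 group.

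Depth limits Pde4c, Adora2a, Pde4d and Nt5e most. The 3 libraries share a donor code, differ in RNA input and have no untreated counterpart here, and neither induction nor variation between animals is reported. Transcript shares are estimates from reads that several forms share.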
